A study of Homo sapiens with 6 samples.

Results

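Semaphorins are guidance proteins that share an extracellular sema domain and signal mostly through plexins, alone or together with neuropilins. Class 3 members are secreted, classes 4 to 6 span the membrane, and class 7 is held in it by a lipid anchor. Plexin signalling acts on small GTPases and the cytoskeleton, and in glioma cells semaphorins have been studied for their effects on migration, survival and the exchange with immune and endothelial cells.

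The semaphorins described here are all genes of the deposited table whose symbol starts with SEMA and a digit, 6 of its 1630 genes: SEMA3C, SEMA5A, SEMA6A, SEMA6B, SEMA6D and SEMA7A. The other 14 of the 20 human semaphorins have no row, among them all 6 members of class 4. The data are RNA-seq of U87MG, an established human glioblastoma line, in 2 groups of 3 libraries: cells with a control short hairpin RNA (shControl, genotype NC) and cells with a hairpin against CREPT (shCREPT, genotype CREPT Knockdown). CREPT, encoded by RPRD1B, is a protein that associates with the tail of RNA polymerase II. The question here is how semaphorin transcripts compare between cells with the control hairpin and cells with the CREPT hairpin. The labels do not say whether the 3 libraries of a group came from separate cultures, from 1 clone or from 1 hairpin sequence, so the p-values rest on library-to-library spread alone, and that spread may be technical. RPRD1B has no row, so it was not among the genes the authors listed as changed, and the knockdown was not checked here.

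Every row of the table was marked significant by the authors for this same contrast, 657 up and 973 down. The smallest absolute log2 fold change they list is 1.0009. Each semaphorin was therefore bound to differ in its authors' call, and the tests below describe size and spread and are not independent evidence of a difference. Genes with no row may or may not have been expressed. Values are the authors' normalized expression values on a linear scale whose unit is not stated, so levels are compared between libraries within a gene and not between genes. Read numbers are unknown, and the sum over the listed values was 31893.69 to 33330.8 in each library.

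In cells with the CREPT hairpin, SEMA7A and SEMA6B rose, SEMA3C and SEMA6A fell, and SEMA5A and SEMA6D were lower at low values. SEMA7A was 4.72-fold higher and SEMA6B 3.48-fold higher in the ratio of group means, while SEMA3C was 2.31-fold and SEMA6A 2.15-fold lower. These rises and falls are calls by limma on log2(value + 1) with Benjamini-Hochberg adjustment over all 1184 genes tested, those with at least 1 in at least 3 libraries. SEMA6D passed that filter only through shControl, where it is high, so it had to differ and is not counted as a fall, and SEMA5A did not pass. Over all tested genes 40.6% rose and 57.3% fell by the same rule, 97.9% in all, so nothing about the semaphorins is read from these calls. Among called genes 41.5% were rises, and 56.6% under the median-of-ratios rescaling described below. In all 6 semaphorins the groups did not overlap, as in 93.3% of all rows and 96.8% of tested genes. By the marks that the authors' deposited table gives, 2 of the 6 are up and 4 down, beside 40.3% up and 59.7% down over all rows. The members moved in both directions within class 6, where SEMA6B rose, SEMA6A fell and SEMA6D was lower.

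**Figure D1:**
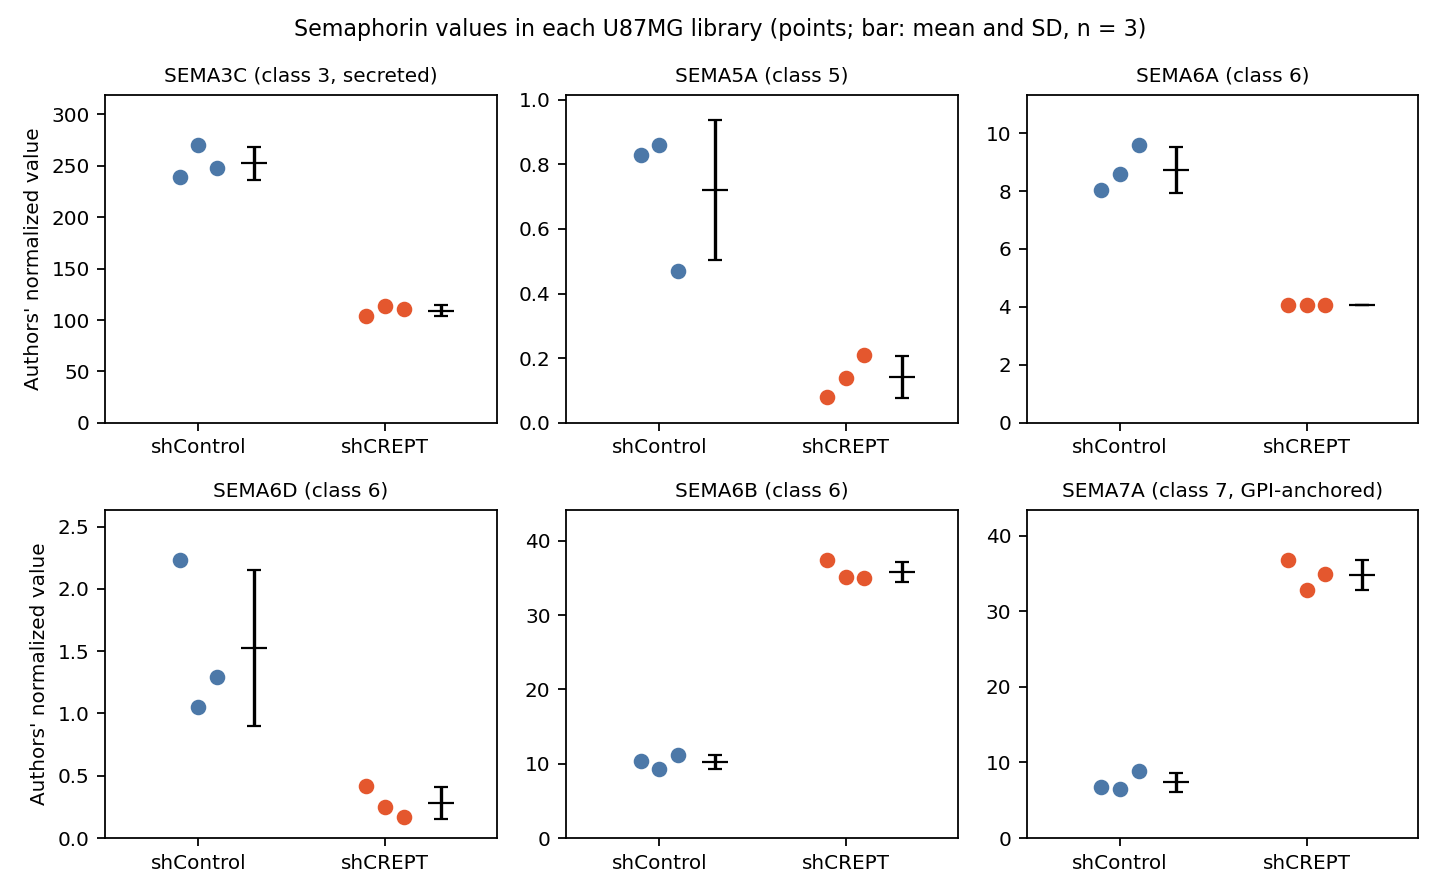
Authors' normalized value (y axis, linear from 0, a scale of its own in each panel) of the 6 semaphorins in the 3 shControl and 3 shCREPT libraries (points), with the mean and SD of each group (n = 3). In SEMA6B and SEMA7A every shCREPT library lies above every shControl library, and in the other 4 genes every shCREPT library lies below.

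SEMA5A is shown first by sequence because its start site lies beside that of another gene with a row. SEMA5A (ENSG00000112902) spans chr5:9035026-9546075 on the minus strand of GRCh38. The long noncoding RNA SNHG18 (ENSG00000250786) spans chr5:9546200-9550609 on the plus strand, so both genes start from the same stretch and run apart, with 124 bases between them. That stretch, chr5:9546076-9546199 on the minus strand (RefSeq promoter table, GRCh38.p14), reads 5′ to 3′ towards SEMA5A, with matches to the GC box in capitals:
SEMA5A-SNHG18 stretch: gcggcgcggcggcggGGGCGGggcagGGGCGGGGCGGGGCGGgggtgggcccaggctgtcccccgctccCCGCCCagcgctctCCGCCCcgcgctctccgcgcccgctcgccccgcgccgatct
It holds 22 CpG dinucleotides and 6 matches to GGGCGG on either strand, some of which overlap each other, and 87.9% of its bases are G or C. Of 35116 promoter windows of the same length, 34.4% hold a GC box and 0.5% hold at least 6.

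The largest rise among the 6 was that of SEMA7A, whose promoter is shown for comparison with this stretch. SEMA7A (ENSG00000138623) spans chr15:74409289-74433958 on the minus strand, and the 250 bases before its first RefSeq start, chr15:74433959-74434208, are given with GC boxes in capitals:
SEMA7A promoter: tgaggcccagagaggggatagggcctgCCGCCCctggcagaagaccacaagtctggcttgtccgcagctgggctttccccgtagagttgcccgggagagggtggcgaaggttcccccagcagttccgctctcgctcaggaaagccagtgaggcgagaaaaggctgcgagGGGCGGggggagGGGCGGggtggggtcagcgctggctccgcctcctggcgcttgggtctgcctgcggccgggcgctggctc
It holds 3 GC boxes, 17 CpG dinucleotides and 70.0% G or C, against a median of 58.0% over all 35116 windows of 250 bases, of which 42.6% hold a GC box. Neither sequence holds the letters of a TATA box (TATAAA, in 10.7% of all windows of 250 bases) or a CACGTG E-box (6.3%), on either strand. Nor does either hold the AP-1 motif TGANTCA (6.6%), the CRE TGACGTCA (1.6%) or CCAAT (32.0%). These shares are for 250 bases, and the stretch has only 124. The 250 bases before the SEMA5A start, which include the stretch and 126 bases of an annotated exon, hold 7 GC boxes and none of the other motifs. A second RefSeq start of SEMA7A has 4 GC boxes, 38 CpG dinucleotides and 77.6% G or C in its 250 bases, which lie inside the transcribed span of the first and are not printed. SEMA3C and SEMA6D have 2 and 3 RefSeq starts, and which start these cells used was not analysed here. The 250 bases before them hold 0 and 3 GC boxes for SEMA3C, with 36.4% and 77.6% G or C. For SEMA6D they hold 0, 0 and 2 GC boxes, and the first of the 3 holds a CACGTG E-box. SEMA6A and SEMA6B have no entry.

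SEMA7A is the single class 7 semaphorin. It is anchored on the cell surface, is known as the John Milton Hagen blood group antigen, and binds plexin C1 and integrin beta 1 on neurons and on monocytes. Its values were 6.78, 6.5 and 8.86 in shControl and 36.78, 32.84 and 34.95 in shCREPT. All 3 shCREPT libraries were high and the groups lay far apart compared with the spread inside them. The change in log2(value + 1) was 2.11 ± 0.13 (SE; 95% interval 1.81 to 2.41; limma adjusted p = 1.34e-05).

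SEMA6B, a transmembrane ligand of class 6 that binds plexins of the A group, lies at chr19:4542593-4559808 on the minus strand. Its values were 10.39, 9.3 and 11.17 in shControl and 37.4, 35.11 and 34.94 in shCREPT, again with every shCREPT library above every shControl library. The log2 change was 1.71 ± 0.09 (SE; limma adjusted p = 1.05e-05). The log2 ratio of SEMA7A to SEMA6B differed between the groups by 0.45 ± 0.09 (SE, n = 3 per group; exact two-sided permutation p = 0.1, the smallest that 3 against 3 libraries can give).

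SEMA6A, a class 6 ligand and receptor known from cerebellar and retinal wiring, spans chr5:116443616-116574934 on the minus strand. Its values were 8.02, 8.59 and 9.59 in shControl and 4.06, 4.06 and 4.07 in shCREPT. The shCREPT libraries were almost identical (SD 0.00577) and all were lower than any shControl library. The log2 change was −0.94 ± 0.09 (SE; limma adjusted p = 6.43e-05). Under median-of-ratios rescaling over the listed genes, which adds 0.88 (log2) to shCREPT relative to shControl, SEMA6A was at −0.19 (limma adjusted p = 0.0897). Every listed gene was selected as changed, so that rescaling has no unchanged genes to rest on. It cannot show which scaling is right.

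SEMA6D, a class 6 ligand of plexin A1, spans chr15:47184101-47774223 on the plus strand, 590123 bases, the longest gene of the 6. Its values were 2.23, 1.05 and 1.29 in shControl and 0.42, 0.25 and 0.17 in shCREPT. The groups did not overlap, but shControl replicate 1 lay well above the other shControl libraries, and the gene passed the filter only through shControl, where it is high. The log2 change was −0.96 ± 0.18 (SE; limma adjusted p = 0.00198, given as a description only), which the pseudocount shrinks. The group means, 1.52 ± 0.624 and 0.28 ± 0.128 (SD, n = 3), differ 5.44-fold.

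Within class 6 the log2 ratio of SEMA6B to SEMA6A changed by 2.90 ± 0.08 (SE, n = 3 per group; exact two-sided permutation p = 0.1) from shControl to shCREPT. This ratio is free of any scaling of whole libraries. Of 4 such ratios between members, chosen after their values were seen, 3 had the smallest possible p (0.133 after Benjamini-Hochberg adjustment over the 4). For SEMA6B to SEMA6A and SEMA7A to SEMA3C that p was fixed in advance. There the numerator rose and the denominator fell, each without overlap between groups, so only the sizes are informative. The fourth, SEMA6A to SEMA3C, differed by 0.11 ± 0.09 (SE; exact two-sided permutation p = 0.3; 0.3 after the same adjustment), so these falls could not be told apart in size.

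SEMA3C, a secreted class 3 semaphorin that acts through neuropilins with plexins A2 and D1, spans chr7:80742538-80922359 on the minus strand. Its values were 239.41, 270.32 and 247.94 in shControl and 103.49, 113.37 and 110.54 in shCREPT. Every shCREPT library was lower than every shControl library, by more than the range inside either group. The log2 change was −1.20 ± 0.09 (SE; limma adjusted p = 2.42e-05), and it shrank to −0.33 under median-of-ratios rescaling while keeping its call (limma adjusted p = 0.0125). The log2 ratio of SEMA7A to SEMA3C rose by 3.46 ± 0.19 (SE; n = 3 per group, exact two-sided permutation p = 0.1, fixed by their opposite directions).

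SEMA5A, a class 5 semaphorin with thrombospondin repeats that binds plexin B3, was below 1 in every library. Its values were 0.83, 0.86 and 0.47 in shControl and 0.08, 0.14 and 0.21 in shCREPT, without overlap. Group means were 0.72 ± 0.217 and 0.143 ± 0.0651 (SD, n = 3), 5.02-fold lower in shCREPT. In a fit with no filter its log2 change was −0.58 ± 0.12 (SE; limma adjusted p = 0.00322).

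SNHG18, the host RNA of a small nucleolar RNA whose start faces that of SEMA5A, was lower too. Its values were 11.64, 6.17 and 3.9 in shControl and 0.55, 0.27 and 1.35 in shCREPT. The shControl libraries differed widely among themselves, and even the lowest lay above every shCREPT library. The log2 change was −2.19 ± 0.38 (SE; limma adjusted p = 0.00126). SNHG18 passed the filter through shControl, with 1 shCREPT library above 1, and was named after its values were seen.

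Other rows near semaphorins are few. Within 500 kb of the 6 genes the table lists 9 genes, of which 4 lie around SEMA6B and are marked up in the authors' deposited table, where 40.3% of all rows are marked up: CHAF1A (36.9 to 85.7 in group means), UHRF1 (36.1 to 84.2), TICAM1 (15.0 to 30.0) and EBI3 (0.393 to 3.18). CHAF1A is a histone chaperone subunit of replication and UHRF1 maintains DNA methylation. Around SEMA7A, LOXL1 and ISLR are marked down and the pseudogene PPIAP46 up, and CD36, beside SEMA3C, is marked down. The windows hold 29 annotated coding genes around SEMA6B and 23 around SEMA7A. Around SEMA6D, SEMA6A, SEMA3C and SEMA5A they hold 4, 3, 2 and 1. SEMA6A and SEMA6D have no listed neighbour among the rows that could be placed. The 81 of 1630 identifiers without a match in GENCODE v29 could not be placed, so neighbours among them would be missed. These neighbours were looked up after the data were seen.

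The deposited fold changes and the deposited values did not tell the same size for every semaphorin. In the authors' deposited table the log2 fold change is −1.83 for SEMA6D and −1.72 for SEMA5A, while the log2 ratios of the group means of the deposited values are −2.44 and −2.33. For SEMA6A the deposited fold is the larger, −1.34 against −1.10. SEMA3C (−1.21 in both), SEMA6B (1.91 against 1.80) and SEMA7A (2.33 against 2.24) lay close. Over the tested genes the median difference was −0.018, and 72 of 1184 (6.08%), SEMA6D among them, differed by over 0.5. Among the genes under the filter, to which SEMA5A belongs, 110 of 404 with both means above 0 did. All 6 directions were equal in both.

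**Figure D2:**
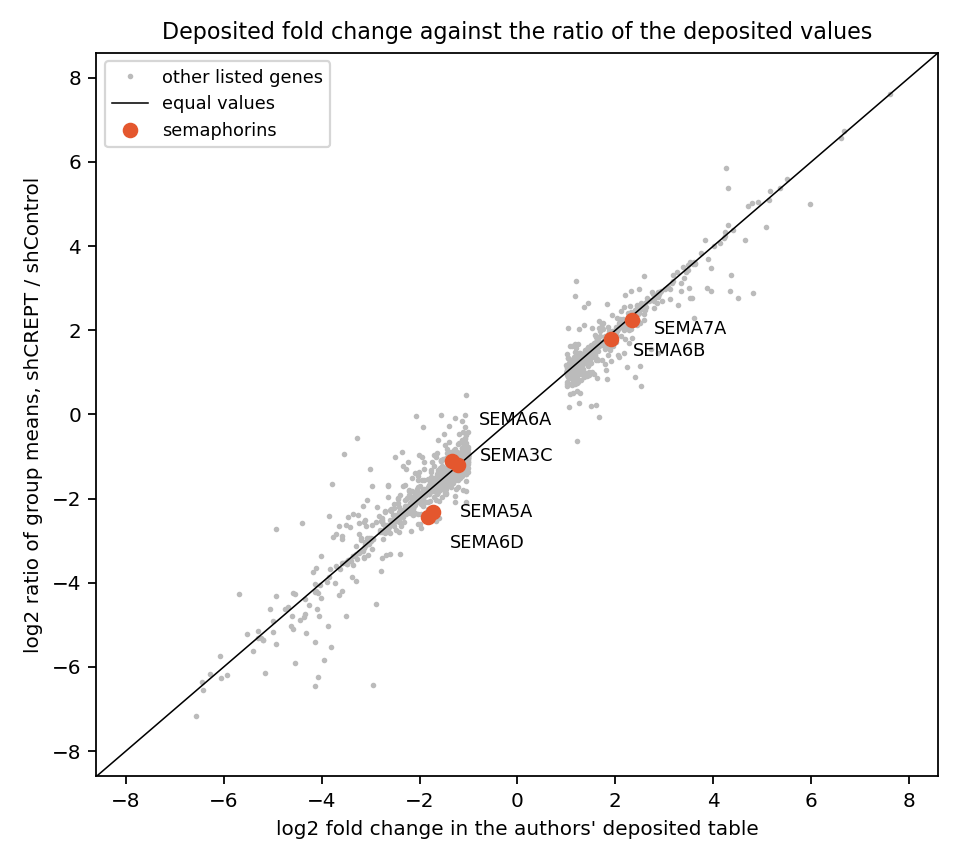
Log2 fold change in the authors' deposited table (x axis) against the log2 ratio of the group means of the deposited values (y axis, shCREPT over shControl), for the listed genes with means above 0 (grey) and the 6 semaphorins (red), with the line of equal values. SEMA5A and SEMA6D lie below the line, at −2.33 and −2.44 against −1.72 and −1.83, and the gap around 0 on the x axis is the authors' threshold.

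Receptors of the semaphorins were few in the table. Of 9 plexins 2 had a row, and of the neuropilins NRP1 and NRP2 neither had. PLXNA2, a receptor of class 6 semaphorins and, with neuropilins, of class 3, rose from 4.06, 3.36 and 4.9 in shControl to 8.72, 8.7 and 9.87 in shCREPT, which is 0.99 ± 0.13 in log2 (SE; limma adjusted p = 0.000302). PLXNB3, a receptor of SEMA5A, fell from 140.47, 122.17 and 137.45 to 51.09, 48.09 and 52.29, with no overlap. The difference was −1.38 ± 0.09 in log2 (SE; limma adjusted p = 1.66e-05). So the ligand SEMA5A, untested and below 1 in every library, and PLXNB3, not necessarily its only receptor, were both lower. Of all rows 59.7% are marked down, and nothing is read from this pair. The class 6 ligands SEMA6A and SEMA6B went opposite ways while PLXNA2 was higher.

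Of 16 other receptors and co-receptors, 2 had a row. NRCAM, an adhesion molecule that joins neuropilin 2 in class 3 receptor complexes, rose from 9.19 ± 1.27 to 17.5 ± 0.708 (SD, n = 3). KDR, the VEGF receptor that can join plexin A1 in binding SEMA6D, fell from 11.1 ± 0.523 to 5.27 ± 0.492 (SD, n = 3) and lost its call under median-of-ratios rescaling (log2 change −0.18; limma adjusted p = 0.124). Of 34 cytoplasmic mediators, 2 had a row, both of the collapsin response mediator family that relays class 3 signals to microtubules. CRMP1 rose from 3.65 ± 0.218 to 6.94 ± 0.558 and DPYSL2 fell from 59.2 ± 0.601 to 21.6 ± 0.715 (SD, n = 3). Their values did not overlap between groups in either gene, as in 96.8% of tested genes, and the changes ran in opposite directions.

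Of 10 proprotein convertases and sheddases, enzymes of the kind that cut secreted semaphorins, PCSK4 alone had a row. It fell from 3.96 ± 1.04 to 1.53 ± 0.308 (SD, n = 3), a call that median-of-ratios rescaling ended (limma adjusted p = 0.107). Together these receptor, mediator and convertase lists hold 71 genes, of which 7 had a row, 3 rose and 4 fell, beside 40.6% and 57.3% of all tested genes, with a median log2 change of −0.95 beside −0.76 over all tested genes.

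**Figure D3:**
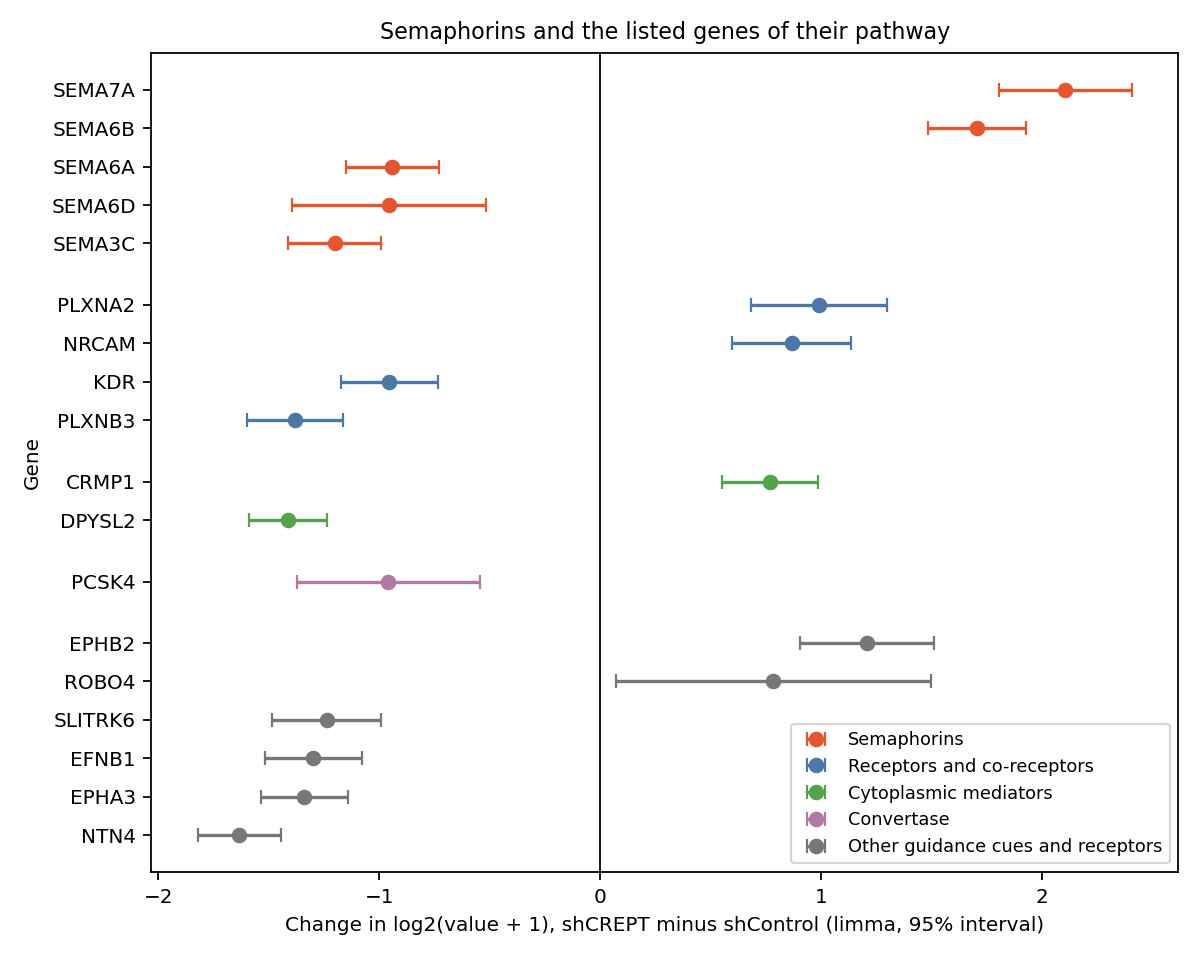
Change in log2(value + 1), shCREPT minus shControl, with its 95% interval from limma (x axis), for the 5 tested semaphorins and the tested genes of the receptor, mediator, convertase and other guidance lists (y axis). SEMA7A and SEMA6B have the largest rises, 2.11 and 1.71, and ROBO4 has the widest interval, with an SE of 0.30.

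Of 50 genes of the other guidance families (netrins, slits, ephrins and their receptors, with SLITRK6 also listed), 9 had a row and 6 were tested. Leaving out SLITRK6, which passed the filter only through shControl, 2 rose and 3 fell, beside 40.6% and 57.3% of all tested genes, and nothing is read from this count. NTN4, a laminin-related netrin, went from 26.6 ± 0.798 to 7.89 ± 0.384 (SD, n = 3), a log2 change of −1.63. The receptor EPHA3, known from mesenchymal glioblastoma, fell from 160 ± 3.46 to 62.9 ± 3.89, and the ligand EFNB1 from 20.5 ± 1.37 to 7.74 ± 0.545 (SD, n = 3). SLITRK6 had 2.45 ± 0.354 in shControl and 0.457 ± 0.0611 in shCREPT (SD, n = 3). EPHB2, a receptor of B ephrins, rose from 7.3 ± 1.31 to 18.1 ± 0.56 (SD, n = 3). ROBO4, an endothelial member of the slit receptor family, had 1.25, 4.02 and 2.88 in shControl and 4.56, 4.52 and 6.3 in shCREPT, which is 0.78 ± 0.30 in log2 (SE; limma adjusted p = 0.0368). That call was lost when any library except shControl replicate 2 was left out (0.0505 to 0.11, limma adjusted p) and with a pseudocount of 0.1 (limma adjusted p = 0.0579). NTN1, EFNB3 and EPHB3 were too low to be tested, and the authors' deposited table lists them at −2.39, −1.15 and −2.11 (log2 fold).

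The genes most like each semaphorin were ranked by the root mean square difference of mean-centred log2(value + 1) over the 6 libraries. SEMA3C was closest to GPC4, a heparan sulfate proteoglycan (0.042), and LGR4, a receptor of R-spondins (0.045). SEMA6A was closest to KITLG, the ligand of KIT (0.044), and SIRPA, the receptor of CD47 (0.046). The rise of SEMA6B was closest to the chemokine CX3CL1 (0.051) and the elongation factor EEF1A2 (0.061). SEMA7A, at larger distances, was closest to the long noncoding RNA MEG3 (0.103) and the receptor subunit IL15RA (0.113), and SEMA6D to DAPK1 (0.104) and REEP6 (0.111). DAPK1, like SEMA6D, had low values (group means 1.43 in shControl and 0.207 in shCREPT). Every row was selected for a difference between these groups, so a like group difference alone can give a small distance. No background distance was computed.

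Genes used as markers of cell types also differed between the groups, in libraries that are all of the U87MG line. Astrocyte markers (3 of 5 with a row: GFAP, SLC1A3 and S100B) summed to 498.32 to 528.49 in shControl and 72.53 to 88.86 in shCREPT, with S100B listed at 0 in shCREPT replicate 2. Endothelial markers (2 of 5: CDH5 and KDR, the latter also a co-receptor above) summed to 43.28 to 45.26 and 11.64 to 13.66. No row was found for the 8 microglia and macrophage markers or for the 5 T cell markers. Of the others, 1 of 5 neuronal, 2 of 6 oligodendrocyte lineage and 1 of 5 fibroblast markers had a row and were lower in shCREPT, where 59.7% of all rows are marked down, and the epithelial list had 2 of 5, CLDN4 (a rise) and KRT19 (a fall). Since all libraries are of the same cell line, these sums are not read as shares of cell types. The part of these shifts in the semaphorin values was not tested. In bulk RNA a change in some of the cells and a change in all of them cannot be told apart.

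Other settings kept the direction of SEMA3C, SEMA6A, SEMA6B and SEMA7A. SEMA3C, SEMA6B and SEMA7A each kept the call in all 14 alternatives, while SEMA6A kept it in 12 of 13. Rises grew under median-of-ratios rescaling, to 2.91 for SEMA7A and 2.53 for SEMA6B, and the log2 change of SEMA6D was −0.60. Among the pathway genes the same rescaling moved PLXNA2 to 1.73, NRCAM to 1.67 and CRMP1 to 1.49, and the rise of EPHB2 grew likewise. The falls kept their call at smaller sizes, −0.51 for PLXNB3, −0.56 for DPYSL2, −0.81 for NTN4, −0.47 for EPHA3, and −0.49 for EFNB1, apart from KDR and PCSK4 as given above.

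**Figure D4:**
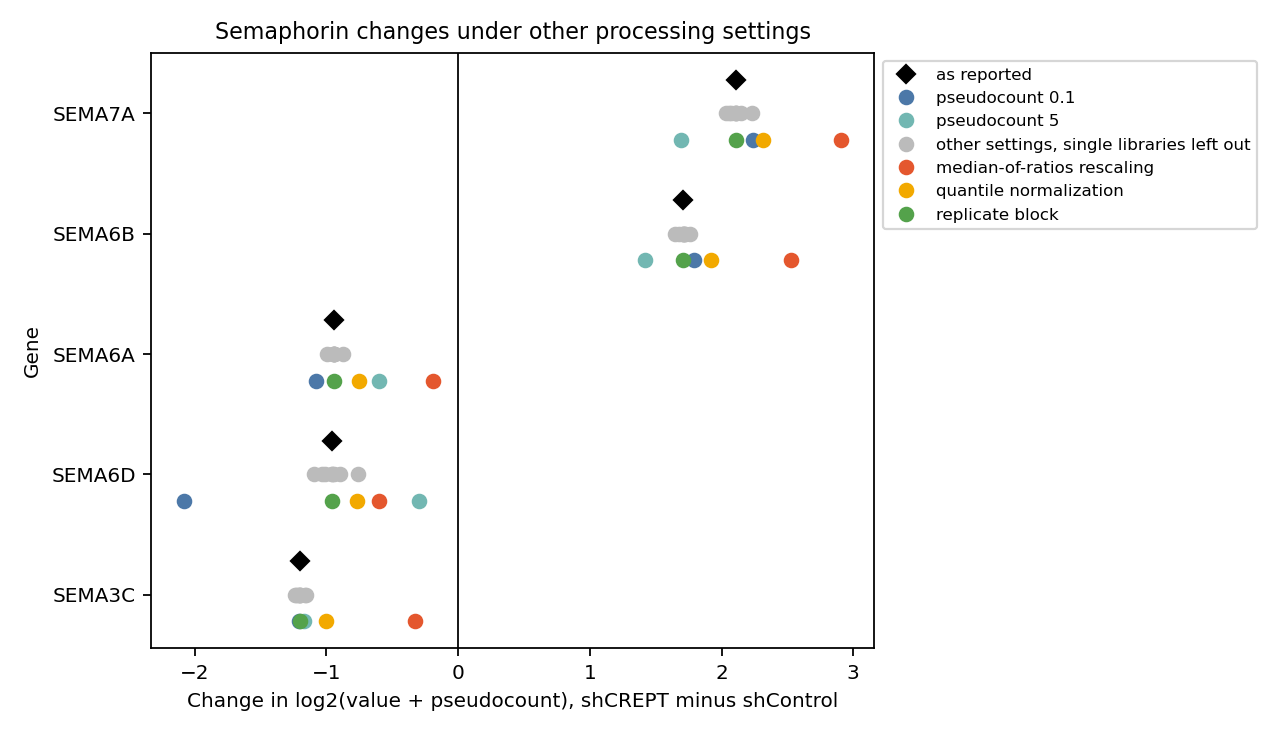
Change in log2(value + pseudocount), shCREPT minus shControl (x axis), of the 5 tested semaphorins (y axis) as reported (diamonds) and under each alternative (circles, colours in the legend). No circle crosses 0; the SEMA6A circle nearest to 0 is median-of-ratios rescaling at −0.19, and the SEMA6D circle farthest from the others is the pseudocount of 0.1 at −2.08.

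Genes on the opposite strand bear on 3 of the 6. In GENCODE v29, 3 genes on the opposite strand overlap SEMA5A, 3 overlap SEMA6A and 4 overlap SEMA6D, none with a row. On their own strand SEMA5A and SEMA6D each overlap 3 genes and SEMA7A overlaps MIR6881, none with a row either. The labels do not say whether the library kept the strand, so reads from the opposite-strand genes and from the semaphorins may not have been told apart. For overlapping genes on the same strand, strand would not separate the reads.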

How the data were processed

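RNA of 6 U87MG libraries, 3 per group by their titles, was measured. HISAT2, HTSeq and GRCh38 are named per the submitters' processing notes; versions and the normalization are not given in the sources used here. Per the labels' protocols, libraries were made with NEBNext Ultra reagents from column-purified RNA. The deposited table gives, per the file headers, 1 normalized signal value per gene and library with 2 decimals, a fold change (ratio) by the authors, the log2 of that ratio, and a p-value with its adjusted value. It holds only genes the authors marked significant (largest adjusted p-value 0.0497). The design had foreseen a count test for a table of counts; these values are not whole, so none was run, and depth is unknown.

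Values were analysed as log2(value + 1), which understates the change of low genes. The filter asked for 3 or more libraries at 1 or above (1184 of 1630 genes passed, 446 did not), and limma 3.58.1 (R 4.3.3) compared the groups with no covariate, Benjamini-Hochberg adjustment over all tested genes and a threshold of 0.05. Fold values are ratios of group means. No 2 libraries held the same value in more than a few percent of genes (at least 96% differed), so all 6 count. Exact permutation tests used the 6 libraries.

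The semaphorins and all lists were chosen with earlier results of these data known. Named genes were all semaphorins, all listed members with a row of the receptor, mediator, convertase and guidance lists, and the 2 genes most like each tested semaphorin; SNHG18 and the neighbours were added after their values were seen. Coordinates are from GENCODE v29 (GRCh38; 1549 of 1630 identifiers matched) and sequences from RefSeq (GRCh38.p14; 4 of 6 semaphorins matched). Python 3.11.15, pandas 2.3.3, scipy 1.17.1 and matplotlib 3.10.9 were used. Alternatives were pseudocounts of 0.1 and 5, no filter, a minimum of 10, quantile normalization, median-of-ratios rescaling, the trend and robust options of limma, a replicate block, and each library left out.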

Additional observations from a re-analysis of the deposited data

How the results depend on the processing

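SEMA3C, SEMA6A, SEMA6B and SEMA7A kept their direction under every alternative that tested them, as did SEMA6D, whose direction the filter fixed. SEMA6A lost its call under median-of-ratios rescaling (log2 change −0.19; limma adjusted p = 0.0897; 4.83e-05 to 0.0897 over its alternatives). That rescaling assumes that the typical gene does not change, in a table that holds only genes selected as changed, with more falls than rises. It therefore cannot show which scaling is right. It moved the median log2 change of the tested genes from −0.76 to −0.13. The share of rises among called genes went from 41.5% to 56.6%, with 377 falls called in place of 678. A minimum of 10 left 487 genes and called 485 of them, 214 higher and 271 lower, and could not test SEMA6A or SEMA6D. With each library left out in turn, between 1137 and 1152 genes were called and none of SEMA3C, SEMA6A, SEMA6B and SEMA7A lost its call. Deviations from the group means in libraries of the same number had r = −0.109, 0.018 and −0.179. Between libraries of different number r ran from −0.112 to 0.199. With 3 libraries per group these values cannot show whether libraries of the same number share a culture or a batch. Adding the replicate block to the model gave 1156 called genes and changed no call of a semaphorin. SEMA5A was tested only without a filter. The table gives no depth, so no limit from read numbers can be set.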
